A study of Saccharomyces cerevisiae with 50 samples.

Results

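Rpl24 is a protein of the large (60S) ribosomal subunit that lies near its interface with the small (40S) subunit. It joins the pre-60S particle in the cytoplasm, where it takes the place of the assembly factor Rlp24, which the ATPase Afg2 removes. Budding yeast carries a pair of nearly identical genes for it, RPL24A and RPL24B, and cells live without either. The strains examined here lack RPL24A (rpl24a, strain number 7469) or RPL24B (rpl24b, strain number 7465), and they were compared with the other strains deleted for genes of 60S proteins. The rule took both libraries of each rpl24 strain, 4 of the 50 libraries of the series, 2 of mRNA and 2 of ribosome footprints. The question was which differences both rpl24 strains share, in mRNA and in footprints, that set them apart from other 60S deletions.

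All are SK1 strains, collected at an OD600 of 0.6 from YEPD with 2% glucose shaken at 30 °C. The reference comprised 12 mRNA and 11 footprint libraries, named by the deleted genes. Those with 1 deleted gene were rpl7a, rpl26a, rpl26b, rpl38, rpl40a, rpl40b, rpl41a and rpl41b. The strain rpl26a rpl26b carries a double deletion. In rpl7a/+ rpl7b/+, rpl26a/+ rpl26b/+ and rpl40a/+ rpl40b/+ the labels mark both deletions of a pair as heterozygous. The footprint library of rpl26a/+ rpl26b/+ (4654v) was left out by the rule. Wild type (2 libraries per assay, strain number 4484) and strains with deletions in 40S protein genes (9 per assay) are given as a backdrop. The 40S strains were rps0b, rps22a (strain numbers 4659 and 4662v), rps25b, rps28a, rps28b, rps29b, rps25a rps25b and rps22a/+ rps22b/+. Of these, rps25a rps25b carries a double deletion, and the label of rps22a/+ rps22b/+ marks both deletions as heterozygous.

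Each strain had 1 library per assay, and nothing in the labels says whether mRNA and footprints came from the same culture. The rpl24 strains differ in genotype, so that they are replicates only of the loss of 1 RPL24 gene, and p-values measure the spread between strains. Recovered depth in mRNA was 1.394 M reads (M, 1000000 reads) for rpl24a and 2.023 M for rpl24b, within the 1.1 to 3.506 M of the 60S libraries used. In footprints it was 6.213 and 5.119 M, within 4.518 to 8.572 M. The deposited values were turned back into reads and then into RPKM (reads per kilobase of coding sequence per M reads), because they grew with gene length. Log2 differences below are on log2(RPKM + 1), which understates the change of low genes.

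The deletions were visible in the reads. RPL24A had 33.4 RPKM of mRNA in rpl24a and 2146 in rpl24b, against 1880 to 2279 in the other 60S strains (median 2097). In footprints it had 33.1 RPKM in rpl24a and 4885 in rpl24b, against 3738 to 4535 (median 4144). RPL24B had 4.85 RPKM of mRNA in rpl24b, from 4 reads, and 1528 in rpl24a, against 1407 to 2037 (median 1756). In footprints it had 94.3 RPKM in rpl24b and 3190.5 in rpl24a, against 2877 to 4055 (median 3429). Each strain therefore stood far below every other library for its own labelled gene alone. Reads that remain at a deleted gene cannot be told apart from reads of its nearly identical partner, since the treatment of reads matching several genes is not given in the sources used here.

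**Figure D1:**
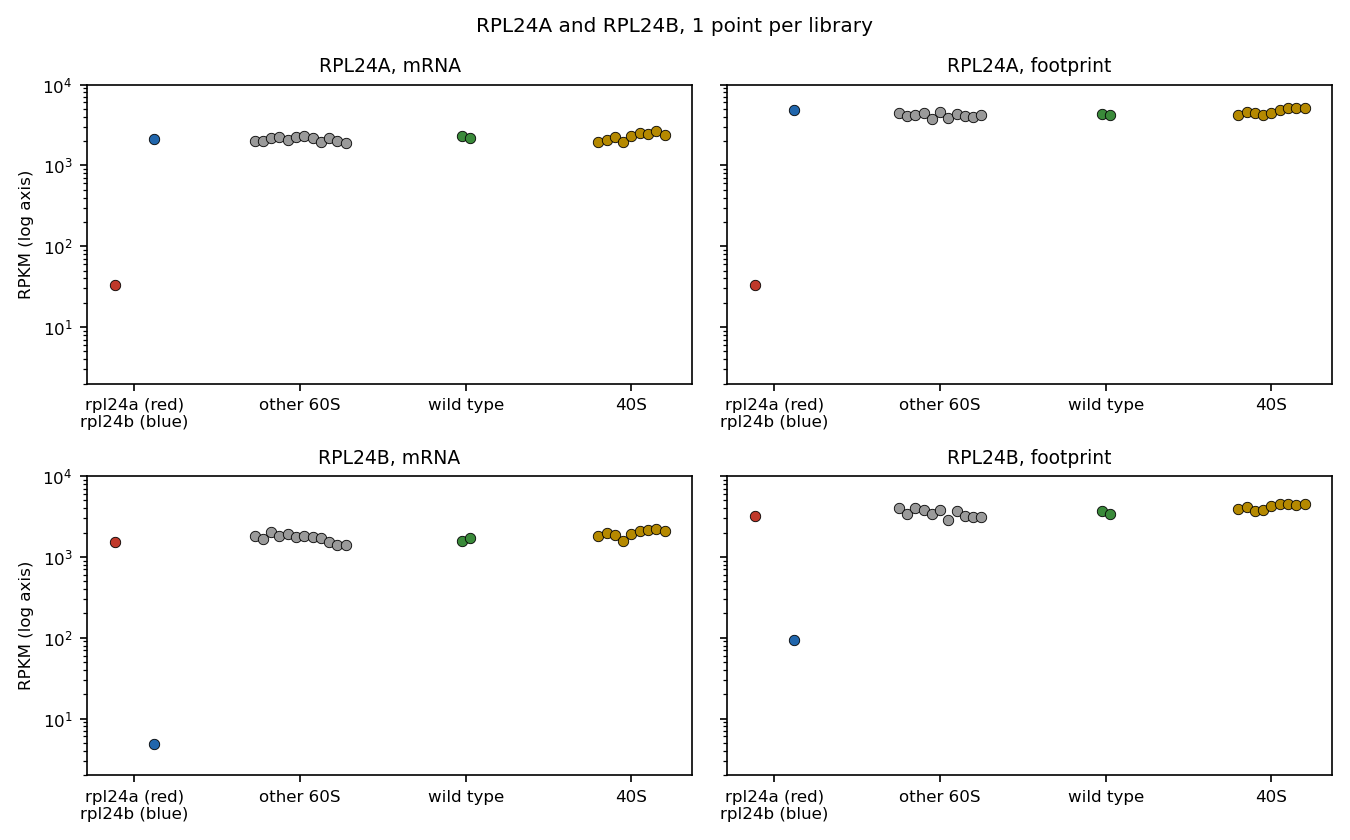
RPKM (log axis) of RPL24A and RPL24B in every library used, mRNA on the left and footprints on the right, 1 point per library in 4 groups. RPL24A is near 33 RPKM in rpl24a in both assays, and RPL24B is at 4.85 (mRNA) and 94.3 (footprint) RPKM in rpl24b. The remaining gene of the pair lies beside the other strains.

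The gene that remained was at or near its usual level, so that each strain had less RPL24 message in all. RPL24B mRNA in rpl24a was 87.0% of the median of the other 60S strains, and its footprints were 93.1%, both inside their range. RPL24A mRNA in rpl24b was 102% of that median and inside the range, and its footprints were 118%, above all 11 other 60S libraries. The RPKM of RPL24A and RPL24B summed to 40.3% of the reference median in mRNA and 42.9% in footprints in rpl24a. In rpl24b the sum was 55.5% in mRNA and 66.2% in footprints, so the sum was lower in rpl24a in both assays. With 1 library per strain and assay, this order has no replicate check.

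Other strains lacking 1 gene of a pair gave a backdrop, read against the 60S strains with that pair intact. The remaining RPL26B was at 105% in mRNA and 96.1% in footprints in rpl26a, and RPL26A at 106% and 89.4% in rpl26b. RPL40B was at 111% and 109% in rpl40a, and RPL40A at 92.5% and 94.7% in rpl40b. The strain rpl7a stood apart, with RPL7B at 1142% of its reference median in mRNA and 1019% in footprints. The pair sum in these 5 strains ran from 37.7% (rpl26b) to 67.6% (rpl26a) in mRNA and from 29.0% (rpl26b) to 66.2% (rpl26a) in footprints. Both rpl24 strains lay inside these bounds in mRNA. In footprints rpl24a lay inside them, and rpl24b was level with rpl26a at the top. These percentages were drawn up after the values were seen and are given with no test.

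Of the genes next to the deletions on chromosome VII, those given here lay inside the range of the other 60S strains in mRNA in the strain that lacks their neighbour. Beside RPL24A, RPL30, a 60S protein gene, had 3623 RPKM of mRNA in rpl24a, inside the range of 2964 to 4218. CGR1, a gene of ribosomal RNA processing, had 90.0 RPKM there, inside the range of 66.0 to 128. Beside RPL24B, NAT2 had 100.5 RPKM of mRNA in rpl24b, inside the range of 80.3 to 121, and GPC1 had 18.4, inside 15.1 to 24.2. In footprints RPL30, CGR1 and NAT2 were also inside in those strains. GPC1 footprints were 5.59 RPKM in rpl24a and 4.73 in rpl24b, below the 5.74 to 10.003 of the others, at a level too low for the test. AGA2, the other direct neighbour of RPL24A, had 0 reads in both rpl24 strains in both assays. It was also near 0 in the other 60S strains, with a median of 0 RPKM in both assays. Their highest values were 4.96 RPKM in mRNA and 2.68 in footprints.

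Across all genes, no difference between the rpl24 strains and the other 60S strains passed the test. limma with Benjamini-Hochberg adjustment called 0 of 5103 genes in mRNA (0%), where the smallest adjusted p was 0.795. It called 0 of 4222 in footprints (0%), where the smallest adjusted p was 0.999, and so 0 of the 4199 genes tested in both assays were shared. At an unadjusted p under 0.05 there were 255 genes in mRNA (5%) and 103 in footprints (2.44%). limma's voom on the recovered reads also called 0 genes in each assay, with 219 and 98 at an unadjusted p under 0.05. RPL24A and RPL24B were among the genes not called, since each is deleted in only 1 of the 2 strains that the contrast averages.

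For most genes the interval was narrow. The 95% interval of the log2 difference lay within 1 of 0 for 4785 genes in mRNA (93.8%) and for 4047 in footprints (95.9%), with a median half-width of 0.31 and 0.34. For these genes a shared difference of 2-fold or more on the log2(RPKM + 1) scale lies outside the interval.

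Footprints per message, the log2 ratio of footprint to mRNA within a strain, gave the same count. limma called 0 of 4199 genes (0%), with 143 at an unadjusted p under 0.05 (3.41%), and for 4060 genes (96.7%) the interval lay within 1 of 0. GCN4, the activator of amino acid synthesis genes whose translation is governed by upstream reading frames, had 1828 and 1669 RPKM of mRNA in rpl24a and rpl24b, inside the range of 1562 to 1899. Its footprints were 83.8 and 73.1 RPKM, in the lower part of the range of 62.7 to 277 (median 111). RPL22B, a 60S protein gene, had 17.2 and 34.8 RPKM of footprints, where the other 60S strains ran from 8.37 (rpl7a) to 421 (rpl41a) around a median of 101. Its mRNA was 125 and 205 RPKM against 86.9 to 282. For neither gene did the rpl24 strains lie outside the other 60S strains. Both genes were picked after their values were seen.

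A count by range, with no model, asked for genes at which both rpl24 libraries lay beyond every other 60S library. In mRNA 86 of 5103 genes lay above (1.69%) and 49 below (0.96%), and in footprints 31 of 4222 lay above (0.734%) and 35 below (0.829%). In both assays on the same side there were 7 of 4199 genes (0.167%), 3 above (0.0714%) and 4 below (0.0953%), and 0 genes lay on opposite sides. Those above were RPS24B, RPL6B and RPL27B, and those below were PYC1, BNA5, LPD1 and ERG20. None of the 7 passed limma. Only PYC1 and BNA5 remained in this set when libraries were scaled by median of ratios or by quantiles, under each of which the set held 10 genes. With the left-out footprint library 4654v kept as a reference, PYC1 and BNA5 dropped out and the other 5 stayed. Thus none of the 7 stayed under all of the alternatives run. With 60S strains as the reference, PYC1 dropped out only where 4654v was kept. Footprints of 4654v correlated at −0.17 with the mRNA of their own strain number, which ranked 19 among the mRNA libraries by that correlation. For the other 60S strains it ranked 1 or 2.

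**Figure D2:**
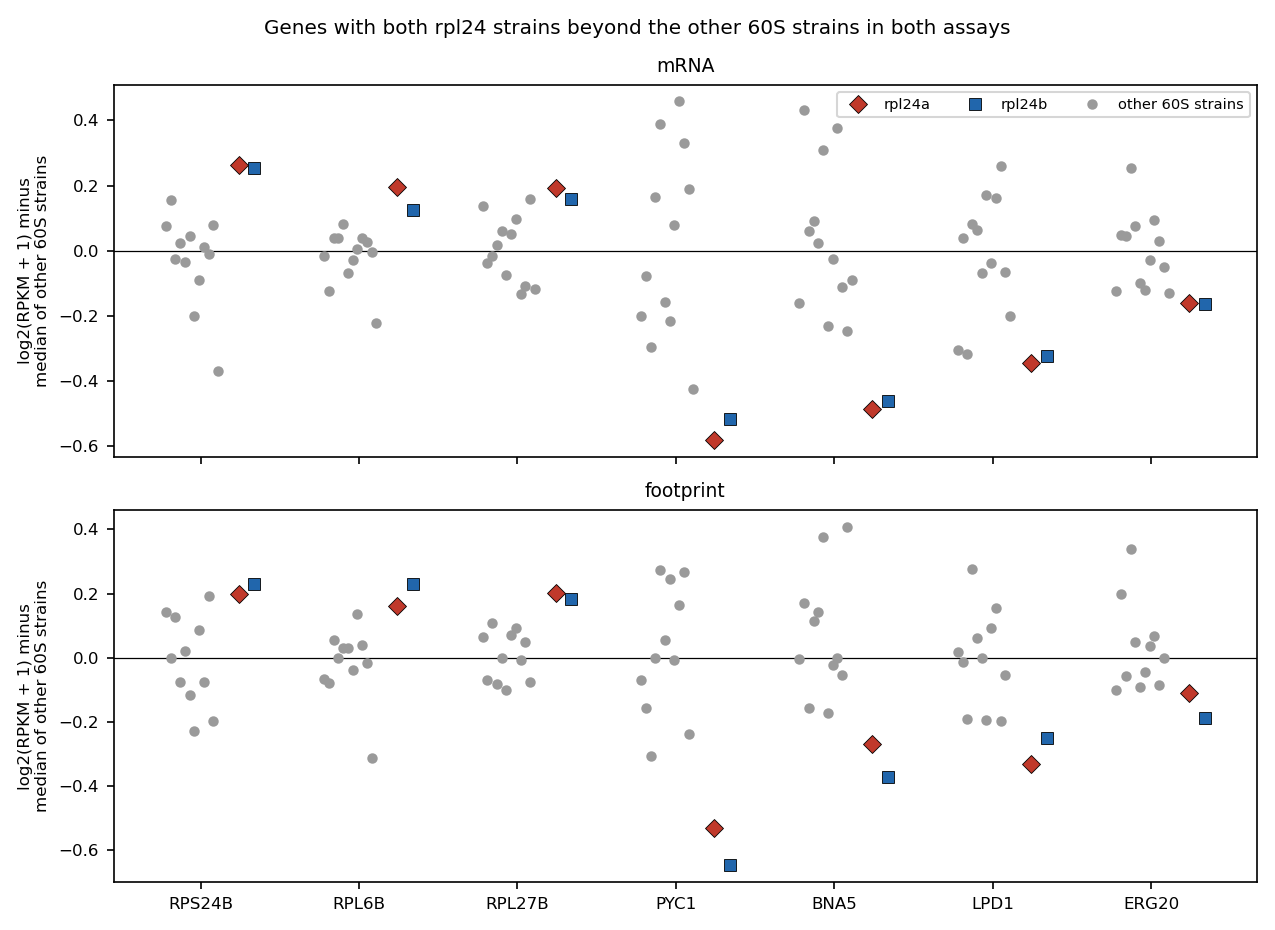
Level of the 7 genes in each 60S strain as log2(RPKM + 1) minus the median of the other 60S strains, mRNA above and footprints below, 1 point per library. Diamonds (rpl24a) and squares (rpl24b) lie beyond all grey points (other 60S strains), with wide gaps for PYC1 footprints and BNA5 mRNA and narrow ones for LPD1, ERG20 and RPL27B mRNA.

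PYC1, a pyruvate carboxylase that makes oxaloacetate from pyruvate, was the only one of the 7 with a log2 difference of 0.5 or more in both assays. Its mRNA was 92.8 RPKM in rpl24a and 97.1 in rpl24b, against 104 (rpl7a) to 192 (rpl41b) with a median of 140 in the other 60S strains. Its footprints were 48.9 and 45.1 RPKM, against 57.3 (rpl40b) to 86.2 (rpl26a) with a median of 71.1. The log2 difference was −0.57 ± 0.20 (SE) in mRNA and −0.61 ± 0.15 in footprints, with limma adjusted p of 0.795 and 0.999. The left-out footprint library 4654v had 47.9 RPKM, between the rpl24 strains. The wild-type libraries had 167 and 140 RPKM of mRNA, so the rpl24 strains were below them too. The 40S strains spanned 80.2 to 501 RPKM of mRNA, a range that holds both rpl24 values.

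BNA5, kynureninase of the route from tryptophan to NAD, had 12.7 and 12.9 RPKM of mRNA in rpl24a and rpl24b, against 15.2 to 24.9 (median 18.2). These rest on 23 and 34 reads. Its footprints were 15.7 and 14.6 RPKM, against 16.8 to 25.7 (median 19.1). The left-out footprint library 4654v had 11.9 RPKM, below both. Without it the groups did not overlap in either assay, and the log2 difference was −0.51 ± 0.17 (SE) in mRNA and −0.39 ± 0.15 in footprints. In footprints the wild-type libraries were at 17.5 and 16.1 RPKM, near the rpl24 strains. In mRNA they were at 20.4 and 19.4 RPKM, above both rpl24 strains. The 40S strains spanned 8.60 to 28.1 RPKM of mRNA (median 13.6) and 8.34 to 35.0 of footprints (median 13.3). These ranges hold the rpl24 values.

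LPD1 encodes the dihydrolipoamide dehydrogenase shared by pyruvate dehydrogenase and 2-oxoglutarate dehydrogenase. It had 153 and 155 RPKM of mRNA in rpl24a and rpl24b, against 156 (rpl40b) to 233, and 148 and 157 RPKM of footprints, against 163 (rpl40a) to 227. ERG20, farnesyl pyrophosphate synthase of the sterol route, had 396 and 395 RPKM of mRNA against 405 to 529. Its footprints were 454 and 431 RPKM against 457 to 621. For both genes the gap to the nearest other strain was small, and the wild-type libraries lay inside the reference range.

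The genes above were all of ribosomal proteins, and their differences were small. RPS24B, of the 40S protein Rps24, had 729.8 and 726 RPKM of mRNA against 470 to 678 (median 608), and 1233 and 1261 RPKM of footprints against 918 to 1229 (median 1074). RPL6B had 2463 and 2346 RPKM of mRNA against 1843 to 2274, and 5082 and 5333 of footprints against 3658 to 4995. RPL27B had 2126 and 2077 RPKM of mRNA against 1698 to 2077, where rpl24b exceeded the highest other strain, rpl40a, by less than 1 RPKM. Its footprints were 3767 and 3719 RPKM against 3056 to 3534. The log2 differences of the 3 genes were 0.17 to 0.29 in mRNA and 0.19 to 0.23 in footprints. Wild-type RPL6B mRNA, at 2446 and 2293 RPKM, was level with the rpl24 strains. Wild-type RPS24B footprints were 1278 and 1068 RPKM, the first above both rpl24 strains and the second below them. RPL6B footprints, RPS24B mRNA and RPL27B in both assays were lower in wild type than in both rpl24 strains.

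**Figure D3:**
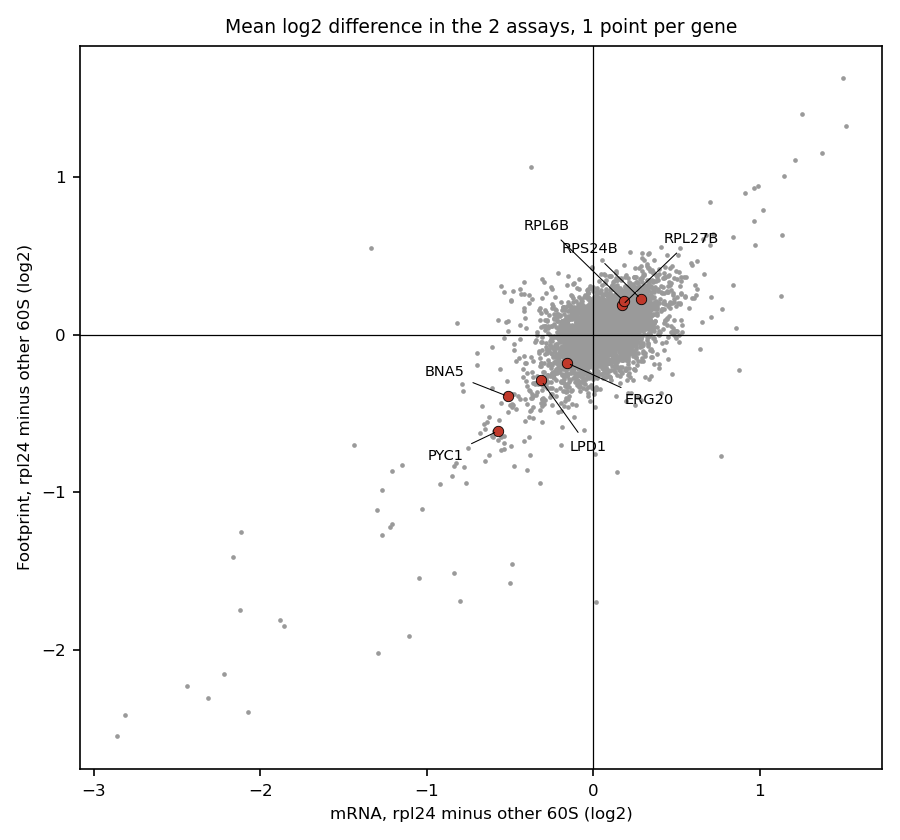
Mean log2 difference of the rpl24 strains from the other 60S strains, mRNA on the x axis and footprints on the y axis, for each gene tested in both assays other than RPL24A and RPL24B. The 7 labelled genes lie in or near the main cloud, and other genes have larger mean differences in both assays.

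Genes with larger mean differences overlapped the other 60S strains in at least 1 assay, and those named here were picked after their values were seen. HPF1, a cell wall mannoprotein, had 182 and 180 RPKM of mRNA in rpl24a and rpl24b, below the 196 to 334 of the other strains. Its footprints were 34.4 and 42.4 RPKM, where rpl40a had 34.3 and the median was 104. YHR214W had 5.20 and 5.37 RPKM of mRNA, below the 6.19 to 135 of the others, and 2.33 and 4.60 RPKM of footprints, where rpl40a had 1.93. SIT1, a siderophore transporter, had 13.1 and 12.6 RPKM of footprints, below the 15.1 to 40.2 of the others, while its mRNA of 32.2 and 31.7 RPKM was just above the lowest other strain at 31.0. RPS22B, a 40S protein gene, had 399 and 441 RPKM of mRNA, below the 443 to 731 of the others, and 654 and 747 RPKM of footprints, where rpl40b had 720.2. In HPF1, YHR214W and RPS22B the strain reaching the rpl24 footprint level was rpl40a or rpl40b, and without rpl40a 16 genes, and without rpl40b 13 genes, lay beyond all others in both assays.

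Ribosomal protein genes were then read as whole lists. Of 79 other 60S protein genes, 0 passed limma in either assay. Both rpl24 strains were above all other 60S strains for 6 in mRNA (7.59%, beside 1.69% of all genes). In footprints they were for 9 of 77 (11.7%, beside 0.734% of all genes). The footprint members included RPL9A, at 6180 and 6275 RPKM against 4806 to 5601, and RPL16B, at 7593 and 7879 RPKM against 5319 to 7178. The wild-type libraries had 6234 and 5153 RPKM of RPL9A and 7410 and 6351 of RPL16B footprints. For both genes the first of them was also above the other 60S strains. The count depended on the scaling, being 0 of 79 in mRNA and 3 of 77 in footprints (3.9%) under both median-of-ratios and quantile scaling. Of all genes, 1.31% (median of ratios) and 1.61% (quantiles) then lay above in mRNA, and 1.16% and 1.21% in footprints. The list's median log2 difference was 0.08 in mRNA and 0.09 in footprints, beside 0.05 and 0.03 for all genes. It was 0.04 and 0.07 under median-of-ratios scaling and 0.02 and 0.03 under quantile scaling. Of 57 40S protein genes, 0 passed. In mRNA 3 lay above (5.26%, beside 1.69% of all genes) and 1 below (1.75%, beside 0.96%). In footprints 5 lay above (8.77%, beside 0.734%). The medians were 0.04 and 0.05. Under both other scalings 1 lay above in mRNA (1.75%) and 0 in footprints, beside the same shares of all genes as for the 60S list. Below all others were 1 in mRNA by median of ratios (all genes 1.41%) and 1 in footprints by quantiles (all genes 0.947%). The 40S median in mRNA turned to −0.01 under median-of-ratios scaling and to −0.02 under quantile scaling, and that in footprints to −0.01 under quantile scaling.

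Factors of 60S maturation include the partners of Rpl24 itself. RLP24, the placeholder that Rpl24 replaces, had 282 and 269 RPKM of mRNA in rpl24a and rpl24b, against 178 to 274 (median 227) in the others, so that rpl24a lay above them and rpl24b inside. Its footprints were 389 and 390.0 RPKM, inside 239 to 437 (median 368). AFG2 mRNA was 64.4 and 80.1 RPKM against 52.6 to 79.7. REI1, which acts in the cytoplasm after Rpl24 joins, had 115 and 121 RPKM of mRNA, inside 61.6 to 125. Its footprints were 196 and 195 RPKM, level with the highest other strain at 195. Of 22 late 60S maturation and export factors, 0 passed limma in either assay, and 1 in mRNA (MTR2; beside 1.69% of all genes) and 0 in footprints (beside 0.734%) lay above all other strains. TIF6 and NMD3, of subunit joining and export, lay inside the range in both assays.

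Scaled to library totals, the mRNA medians of the assembly lists were above all other 60S strains in rpl24b and among them in rpl24a. The footprint medians were inside the range in both. For the late 60S factors the list median was 0.10 in rpl24a and 0.21 in rpl24b in mRNA, where the other strains ran from −0.36 to 0.12. In footprints it was 0.12 and 0.08, within −0.51 to 0.17. For 57 early 60S assembly factors it was 0.03 and 0.23 in mRNA (others −0.40 to 0.17) and 0.09 and 0.13 in footprints (others −0.56 to 0.20). For 62 40S assembly factors it was 0.01 and 0.22 in mRNA and 0.10 and 0.08 in footprints. The median of all genes was itself −0.03 in rpl24a and 0.10 in rpl24b in mRNA, which is the highest of the 60S strains for rpl24b. Under median-of-ratios scaling the late 60S medians were 0.13 and 0.09 in mRNA, against at most 0.10 in the others. Under quantile scaling they were 0.10 and 0.14 in mRNA, both above the others (at most 0.08). In footprints they were then 0.11 and 0.15, inside the range (at most 0.17).

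Amino acid synthesis genes that answer to Gcn4 had list medians of −0.31 in rpl24a and −0.30 in rpl24b in mRNA, and −0.38 and −0.28 in footprints. The other 60S strains ran from −0.53 to 0.76 and from −0.50 to 0.78, so the rpl24 strains were low but not outside. Of 38 genes 0 passed limma in either assay.

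**Figure D4:**
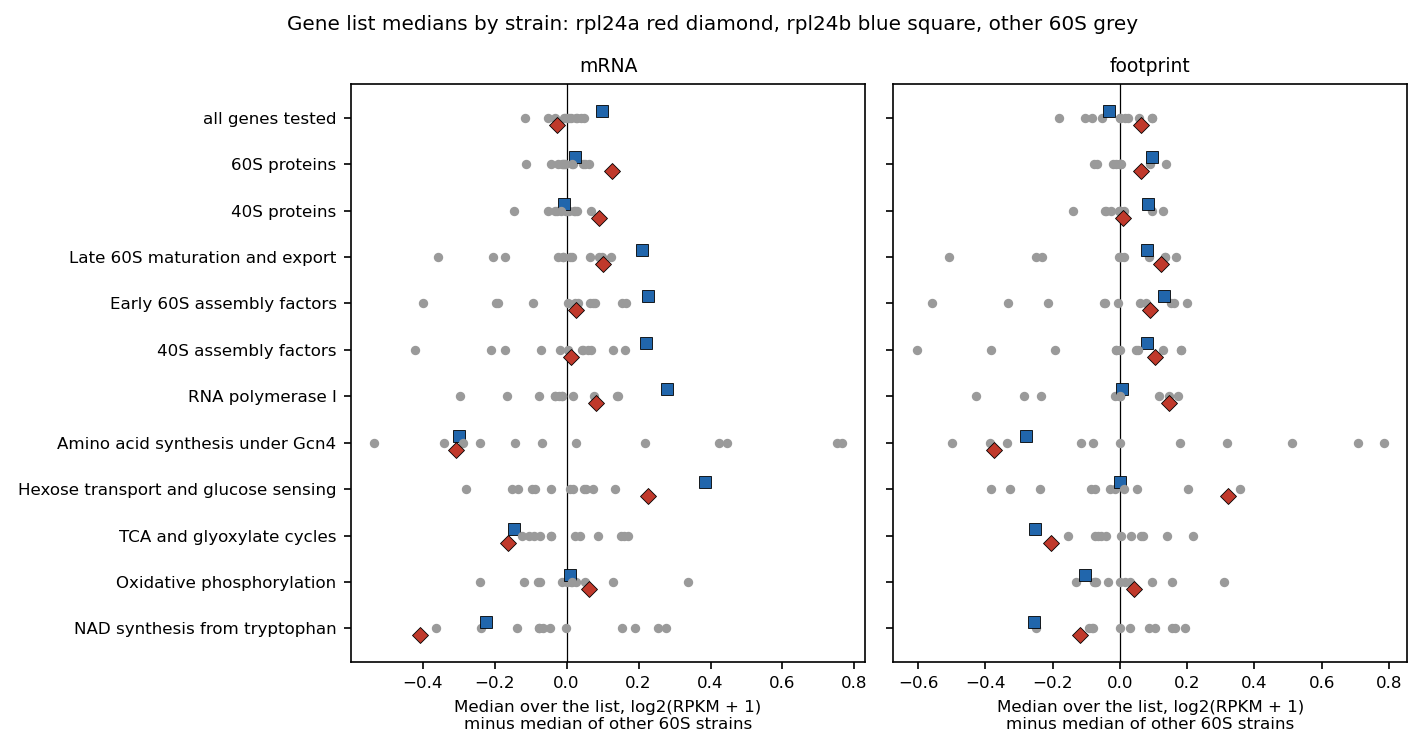
Median over a gene list of log2(RPKM + 1) minus the median of the other 60S strains, for each 60S strain scaled to library totals, mRNA on the left and footprints on the right. In the tricarboxylic acid list both rpl24 strains are left of all others in both assays, and in the hexose list they are right of all others in mRNA. In the other lists at least 1 rpl24 value falls among the grey points in at least 1 assay.

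Of 32 lists looked at, 27 had genes tested in both assays, and among these the tricarboxylic acid and glyoxylate cycle list was the only list in which both rpl24 strains lay beyond all other 60S strains in both assays. Its median was −0.16 in rpl24a and −0.15 in rpl24b in mRNA, where the lowest other strain was at −0.12, and −0.21 and −0.25 in footprints, where the lowest was at −0.15. Of 14 genes tested in mRNA and 13 in footprints, 0 passed limma, and 3 in each assay had both rpl24 strains below all others, beside 0.96% and 0.829% of all genes. In mRNA these were ACO1, IDH1 and LPD1. ACO1, aconitase, had 494 and 461 RPKM against 531 to 761, and IDH1, a subunit of isocitrate dehydrogenase, had 243 and 228 RPKM against 247 to 363. In footprints they were CIT1, IDH2 and LPD1. CIT1, mitochondrial citrate synthase, had 91.8 and 77.9 RPKM against 93.9 to 220, and IDH2, the other subunit, had 271 and 265 RPKM against 294 to 469.

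The remaining members of the cycle overlapped the other strains. KGD1 and KGD2, of 2-oxoglutarate dehydrogenase, FUM1, fumarase, MDH1, malate dehydrogenase, and LSC2, of succinyl-CoA ligase, were not beyond the range in either assay. With quantile scaling 1 gene of the list lay below all others in mRNA and 3 in footprints, beside 1.51% and 0.947% of all genes. With median-of-ratios scaling it was 1 gene in each assay, beside 1.41% and 1.21%. The list median with median-of-ratios scaling was −0.16 and −0.23 in mRNA against a lowest of −0.18, and −0.26 and −0.20 in footprints against −0.29. Under that scaling the rpl24 strains no longer both stood apart, nor did they under quantile scaling in mRNA, where rpl24a was at −0.15 and the lowest other strain at −0.15. Oxidative phosphorylation genes, 36 in each assay, had medians of 0.06 and 0.01 in mRNA and 0.04 and −0.10 in footprints, inside the range of the others. Of these genes 0 passed limma. In mRNA 0 lay below all others (beside 0.96% of all genes), and in footprints 3 did (8.33%, beside 0.829%). The footprint count was 3 under quantile scaling (beside 0.947%) and 1 under median-of-ratios scaling (2.78%, beside 1.21%).

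Hexose transport and glucose sensing genes had the highest mRNA medians in the rpl24 strains, at 0.23 and 0.39 against −0.28 to 0.13 in the other strains. This order in mRNA held under median-of-ratios scaling (0.28 and 0.28 against at most 0.17) and under quantile scaling (0.32 and 0.31 against at most 0.17). In footprints the medians were 0.32 and −0.00081, inside −0.38 to 0.36. Of 11 genes tested in mRNA and 8 in footprints 0 passed limma, and 2 in mRNA (beside 1.69% of all genes) and 0 in footprints (beside 0.734%) lay above all other strains. Under quantile scaling the counts were 3 (27.3%) and 2 (25%), beside 1.61% and 1.21% of all genes. Under median-of-ratios scaling they were 3 and 0, beside 1.31% and 1.16%. MTH1, which keeps hexose transporter genes repressed when glucose is low, had 49.7 and 51.3 RPKM of mRNA against 5.78 to 46.2 (median 19.6). Its footprints were 25.3 and 21.4 RPKM against 3.95 to 23.9 (median 12.1). SNF3, a glucose sensor, had 15.2 and 14.9 RPKM of mRNA against 7.98 to 13.6, and was too low in footprints to be tested. HXT4, a hexose transporter, had 90.6 and 66.7 RPKM of mRNA against 24.6 to 70.7, and 57.8 and 38.8 RPKM of footprints against 14.5 to 48.4. The major transporters HXT2 and HXT3 lay inside the range in both assays.

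A list of the NAD route was added after BNA5 and BNA1 had been seen, and is a description. Of 6 genes tested, 0 passed limma in either assay, and 1 (BNA5, which prompted the list) lay below all other strains in each assay, beside 0.96% and 0.829% of all genes. Under both other scalings the mRNA count was 2, beside 1.41% (median of ratios) and 1.51% (quantiles) of all genes. BNA4, kynurenine 3-monooxygenase, had 18.4 and 26.2 RPKM of mRNA against 25.7 to 43.3, and 28.5 and 26.4 RPKM of footprints against 24.9 to 39.7. BNA3, BNA6 and BNA7 lay inside the range in both assays.

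Each rpl24 strain was also set against the other 60S strains alone, asking for a log2 difference of 1 from their median and a value beyond all of them in both assays. There were 7 such genes in rpl24a (0.167%) and 2 in rpl24b (0.0476%), with RPL24A and RPL24B themselves among them. With 1 library per strain and assay this has no test. MTH1 and HXT4 were above in rpl24a, and FMP23, BNA1, AQY2 and FRE4 below. YJR115W was above in rpl24b. For BNA1 and FMP23 the listed mRNA value in rpl24a is 0. With rpl40a left out the counts were 11 and 5, and with a minimum mean of 30 RPKM the rpl24a count was 1.

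**Figure D5:**
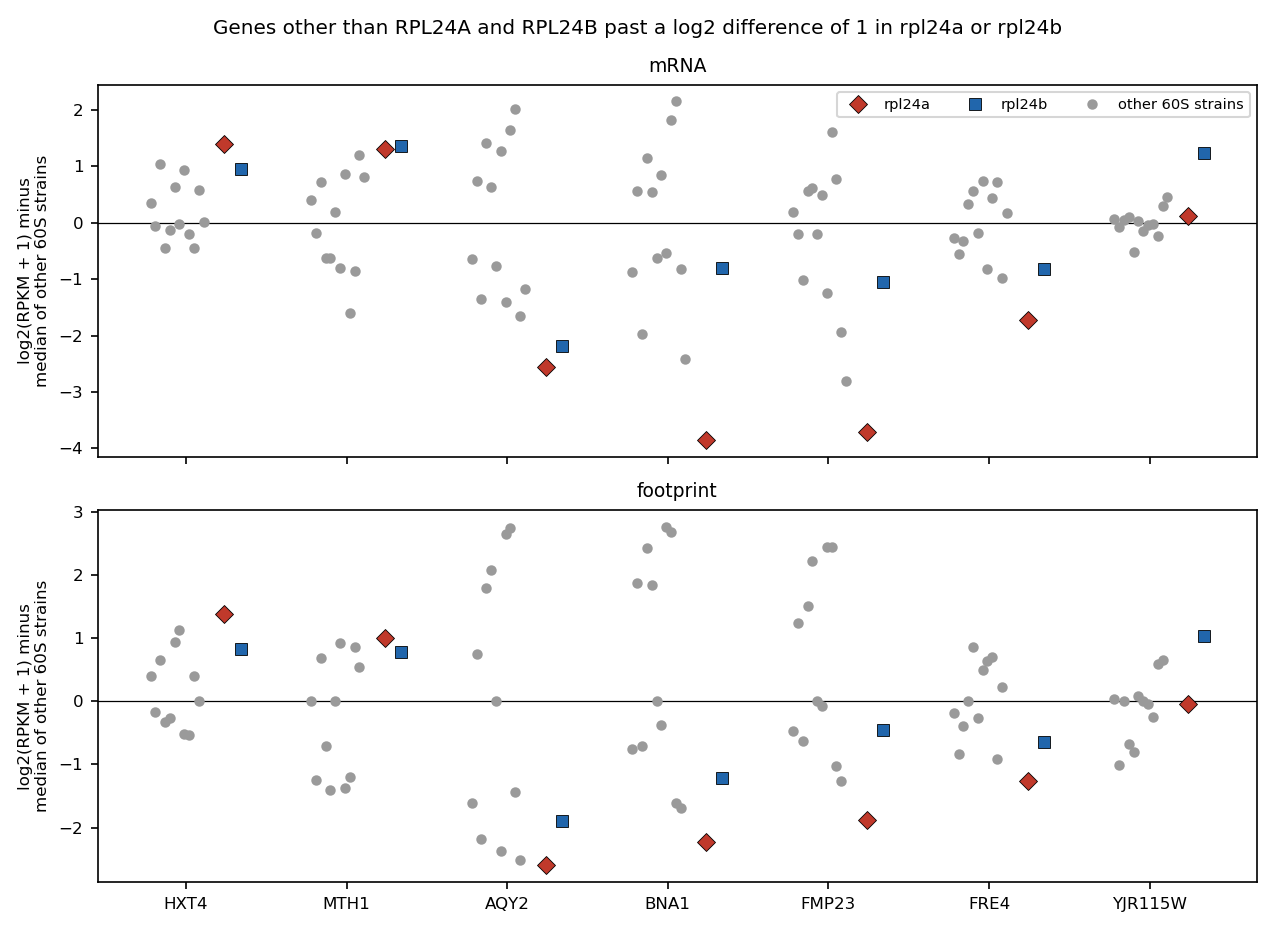
Level of the 7 genes other than RPL24A and RPL24B that passed the single-strain rule, as log2(RPKM + 1) minus the median of the other 60S strains, mRNA above and footprints below, 1 point per library. The rpl24b square lies on the side of the rpl24a diamond for every gene but YJR115W, whose rpl24a footprint value is just below 0.

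For the rpl24a genes other than RPL24A, rpl24b differed from the median on the same side, and by less except for MTH1 mRNA. For HXT4 the log2 difference from the median was 1.40 (mRNA) and 1.39 (footprint) in rpl24a and 0.96 and 0.82 in rpl24b. AQY2, a water channel, had 3.60 and 4.96 RPKM of mRNA in rpl24a and rpl24b, from 2 and 4 reads, against 7.61 to 109 (median 28.9). Its footprints were 0.807 and 1.96 RPKM, from 2 and 4 reads, against 0.926 to 71.9. FRE4, a ferric reductase, had 5.81 RPKM of mRNA in rpl24a and 11.8 in rpl24b, against 10.5 to 37.0, and 3.30 and 5.58 RPKM of footprints, against 4.49 to 17.7. AQY2 and FRE4 thus had lower values than every other 60S library in rpl24a, while rpl24b overlapped them in at least 1 assay. For AQY2 in rpl24a, 2 reads in each assay are too few to show a level below all others.

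BNA1, of the NAD route, and FMP23, a mitochondrial protein, had 0 mRNA reads in rpl24a. Taking 3 reads as the limit for a count of 0 in that library, BNA1 was at least 3.19-fold lower than the median of the other 60S strains (14.5 RPKM) and FMP23 at least 2.65-fold lower (12.2 RPKM). That limit, 4.54 and 4.60 RPKM, covers counting error only and is above the lowest other strain for both genes, so that a level below all others is not shown in mRNA. In rpl24b they had 7.30 and 5.28 RPKM, inside wide ranges of 1.70 to 63.3 for BNA1 and 0.861 to 38.8 for FMP23. BNA1 footprints were 2.38 RPKM in rpl24a and 5.77 in rpl24b against 3.90 to 106. FMP23 footprints were 1.72 RPKM in rpl24a and 6.26 in rpl24b against 3.16 to 53.1. The lowest other strain was rpl7a for both genes in both assays.

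YJR115W, an uncharacterised gene, had 174 RPKM of mRNA in rpl24b and 79.7 in rpl24a, against 51.0 to 101 (median 73.6). Its footprints were 184 RPKM in rpl24b and 86.8 in rpl24a, against 43.6 to 140.2 (median 89.1). The strain with the highest level among the others was rpl7a in both assays, and rpl24a was close to the median.

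Between the rpl24 strains themselves, 9 of 4199 genes (0.214%) differed by a log2 of 1 or more in the same direction in both assays. They included RPL24A, RPL24B, BNA1, FMP23 and YJR115W. HSP12, a stress protein of the plasma membrane, had 197 RPKM of mRNA in rpl24a and 75.1 in rpl24b, and 660.0 and 323 RPKM of footprints. FRE1, a ferric reductase, was lower in rpl24a, at 50.9 against 106 RPKM of mRNA and 12.5 against 30.3 of footprints. YAL065C and RCF3 were higher in rpl24a. These are differences between single libraries with no replicate check.

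The rpl24a footprint library also stood apart in genes of mating type. The 5 alpha-specific genes summed to 21.6 RPKM there, from 109 reads, against 0.421 in rpl24b and 0.545 to 4.75 in the other 60S strains, with 4 of 5 detected in rpl24a and 2 of 5 in rpl24b. MF(ALPHA)1, the alpha-factor gene, had 58 footprint reads in rpl24a (12.5 RPKM) and 0 in rpl24b, with 0 to 1.47 RPKM in the others, and STE3, the a-factor receptor, had 8 and 0 reads. The 12 haploid-specific genes summed to 45.2 RPKM of footprints in rpl24a and 13.7 in rpl24b, against 14.7 to 24.04 in the others. In mRNA the haploid-specific sum was 84.8 RPKM in rpl24a and 51.8 in rpl24b, against 39.4 to 77.2, while the alpha-specific sum was 27.2 and 15.2, inside 13.7 to 35.5. SAG1, at 11.4 to 22.7 RPKM in the other 60S strains, made up much of that sum. MF(ALPHA)1 mRNA was 4.82 RPKM in rpl24a, from 5 reads, and 0 in rpl24b, with 0 to 0.680 in the others. The 7 a-specific genes summed to 7.93 and 5.72 RPKM of footprints, inside 0.840 to 56.7, and the 13 early meiotic genes to 8.69 and 9.003 RPKM, inside 5.63 to 10.4. How far the source of these reads bears on the other values given for rpl24a alone was not tested. In bulk samples, more cells of a type and more RNA per cell cannot be told apart.

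Taking wild type as the reference in place of the other 60S strains, a choice made after the first results were seen, gave 0 genes past limma in mRNA, in footprints and in their ratio. At an unadjusted p under 0.05 there were 145, 74 and 129 genes. In that fit the 2 wild-type samples stand for 1 strain number, and nothing in the labels says whether they came from separate cultures.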

How the data were processed

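Ribosome footprints and mRNA were deposited as 1 table per assay with 25 libraries each, 2 of them wild type of 1 strain number. CASAVA, bcl2fastq 2.17 and Bowtie2 are named in the submitters' processing notes, and the genome build, annotation, strand and multiple matches are not given there. Per the file headers the columns are RPKM, but the deposited values behaved as a signal in which 1 read was worth a library constant times the coding length less 60 nt. Whole reads were recovered (tolerance 0.03 reads) at the R64 length for 5090 of 6679 open reading frames, 87.6% of the 5812 tried, against 37 of 5812 at another gene's length. A further 1017 took the length that made their reads whole (697 of the genes tested in mRNA, 557 in footprints). The rest were 351 at 0 and 221 left out, with at most 0.00038% of a library's signal, and 1 unnamed line per table.

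The design assumed RPKM, which was recomputed from these reads. Genes averaging 10 RPKM or more in an assay entered limma 3.58.1 (R 4.3.3, trend, adjusted p of 0.05) on log2(RPKM + 1), fitted to the 60S strains. Assays were paired by the strain number that the labels give. Footprints of rpl24a and rpl24b correlated best with their own mRNA (0.65 and 0.63 across 2706 genes). The own mRNA ranked 2 for rpl41a and 19 for the left-out 4654v (−0.17). The fits were tested on simulated data. Alternatives were other constants, minimum levels, scalings, lengths and reference strains, voom, and leaving out each strain.

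Genes were named where both rpl24 strains lay beyond the others in both assays, where a list member passed limma, or where a single strain passed its rule with the other inside the range. Other genes with values were chosen after these were seen. Members and lists were chosen with earlier results of these data known.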

Additional observations from a re-analysis of the deposited data

How the results depend on the processing

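Under every alternative that kept both rpl24 strains, 0 genes passed limma in mRNA, in footprints, in their ratio and in both assays. Without the pairing of assays by strain number (no replicate block) the ratio gave 0 genes, with 63 at an unadjusted p under 0.05. Leaving out 1 strain at a time gave 0 to 6 genes in mRNA, 0 to 1 in footprints, 0 to 2 in the ratio and 0 to 1 in both assays. The counts above 0 came without rpl24b or rpl24a, where the lone strain is assumed to vary like the others. Without rpl24b the mRNA genes were RPL24A, MUD1, YBR196C-A, YBR196C-B, YGR011W and FMP30, all lower, and without rpl24a RPL24B alone. The log2 difference of RPL24A ran from −5.93 to 0.037 in mRNA and from −6.93 to 0.23 in footprints. The positive values came without rpl24a, where only rpl24b, which keeps RPL24A, remained. The genes beyond all others in both assays numbered 4 with annotated lengths only, 15 against strains with 1 deleted gene, and 7 to 89 with 1 strain left out (89 without rpl24b, 73 without rpl24a). The single-strain rule gave 14 genes in rpl24a and 4 in rpl24b with no minimum level, 1 in rpl24a at a minimum of 30 RPKM, 1 in rpl24b with annotated lengths only, and 6 to 11 and 2 to 5 with 1 other strain left out. Apart from RPL24A, no gene named by the rule changed direction under the settings run. Depth limits BNA1, FMP23 and AQY2, which rest on few reads.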
